A study of Mus musculus with 11 samples.

Results

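The glucocorticoid receptor gene Nr3c1 and 8 genes known as targets of the receptor, Fkbp5, Tsc22d3, Per1, Sgk1, Dusp1, Zbtb16, Klf9 and Ddit4, were followed in fluorescent adrenocortical cells of mouse fetuses that lacked Star and of wild-type fetuses. The genes were chosen by name, and their probes were taken wherever the RefSeq accession on the array belonged to one of them. By that rule 8 of the 9 genes had a probe, and Zbtb16 had none. They were covered by 15 of the 41174 probes and were 8 of the 17427 genes named on the array.

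The study compared 4 Star-/- fetuses, all labelled male, with 7 Star+/+ fetuses, of which 3 were labelled male and 4 female, at E17.5-18.5, in days of embryonic life, in both groups. Star encodes the protein that delivers cholesterol to the inner mitochondrial membrane, the step that starts steroid synthesis. The cells of both genotypes carried enhanced green fluorescent protein and were collected by flow sorting for it, and the labels do not name the promoter behind that reporter. Each single-colour Agilent array carried linearly amplified RNA of 1 mouse.

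The glucocorticoid receptor is a nuclear receptor that waits in the cytoplasm in a complex with the chaperone HSP90 and immunophilins. When it binds corticosterone, the main glucocorticoid of mice, it enters the nucleus and switches on genes at glucocorticoid response elements, and it represses many inflammatory genes by acting on other transcription factors. Of its targets, Fkbp5 damps the signal itself, since it encodes an immunophilin that lowers the affinity of the receptor for hormone. Tsc22d3 and Dusp1 carry anti-inflammatory effects. The fetal adrenal cortex both makes the hormone and expresses the receptor.

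Levels below are log2 processed signals minus the 75th percentile of all probes on the same array, so that 0 is that percentile, and a level of 1 probe is never set against that of another. Differences are knockout minus wild-type on the same log2 scale, each with its standard error (SE), from limma with slide as a block. Slide 1 held knockout arrays 1 and 2 and wild-type arrays 1 and 2, slide 2 held knockout arrays 3 and 4 and wild-type array 3, and slide 3 held wild-type arrays 4 to 7. The differences therefore rest on 4 knockout and 3 wild-type arrays, and slide 3 enters only the estimate of the spread, so that means over all arrays and fitted differences need not agree in size. The 75th percentile of the signal was lowest on wild-type array 3, at 115, and highest on knockout array 1, at 706. Star itself, the deleted gene, lay between 1.58 and 3.27 on the knockout arrays and between 3.21 and 7.86 on the wild-type arrays, a difference of −4.70 ± 0.93 (SE, limma adjusted p = 0.0558). The signal of Star was above background on all 4 knockout arrays, and the files do not say whether its probe lies in the deleted part. Nr5a1, the transcription factor that defines steroid-producing cells, was above background on all 11 arrays, with a difference of −0.84 ± 0.55 (SE, limma adjusted p = 0.438). Of the 8 adrenocortical markers on the array, 7 or 8 were above background on every array. No knockout array was labelled female, whereas wild-type arrays 3 to 6 were. All arrays of slide 1 were labelled male. On slide 2 male knockout arrays stood against 1 female wild-type array, so genotype and sex cannot be told apart there.

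The promoters of the target genes are shown first because the receptor is known to act through response elements in the DNA of its targets. RefSeq lists 15 promoters for the 7 targets with a probe, each of 250 bases before to 50 after the start on GRCm38.p6. They were searched on both strands for the glucocorticoid response element, taken as AGAACA, any 3 bases and TGTTCT, for its arm AGAACA, for the cAMP response element TGACGTCA and for that element's arm TGACG. Each arm also lies inside its whole element. The whole glucocorticoid element occurred in 1 of the 15 promoters, starting 189 bases before the start. That promoter is 1 of several listed for Sgk1, and the others lack the whole element. Of all 32851 RefSeq promoters of that length, 3 held the whole glucocorticoid element (0.00913%). Its arm occurred in 4 of the 15 and in 19% of all promoters. The whole cAMP element occurred in 1 of the 15, that of Dusp1, starting 143 bases before the start, and in 1.79% of all promoters. Its arm occurred in 6 of the 15, among them both promoters of Per1, and in 20.8% of all promoters. Neither motif, whole or arm, was in the Fkbp5 window. Capitals mark these matches in the sequences, which read 5′ to 3′ along each gene. The Sgk1 and Per1 promoters lie on the plus strand and those of Dusp1 and Fkbp5 on the minus strand.
Sgk1 chr10:21993640-21993939: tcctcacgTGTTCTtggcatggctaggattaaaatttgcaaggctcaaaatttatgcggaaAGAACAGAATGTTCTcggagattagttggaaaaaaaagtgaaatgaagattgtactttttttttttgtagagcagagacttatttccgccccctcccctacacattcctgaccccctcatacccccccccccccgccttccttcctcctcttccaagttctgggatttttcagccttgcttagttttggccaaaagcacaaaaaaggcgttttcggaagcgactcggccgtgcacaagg
Dusp1 chr17:26508423-26508722: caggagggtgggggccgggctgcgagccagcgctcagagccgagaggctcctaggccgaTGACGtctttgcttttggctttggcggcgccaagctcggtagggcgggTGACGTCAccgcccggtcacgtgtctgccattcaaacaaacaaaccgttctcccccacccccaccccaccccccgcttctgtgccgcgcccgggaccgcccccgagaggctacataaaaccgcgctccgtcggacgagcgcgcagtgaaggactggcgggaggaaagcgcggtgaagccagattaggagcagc
Per1 chr11:69099902-69100201: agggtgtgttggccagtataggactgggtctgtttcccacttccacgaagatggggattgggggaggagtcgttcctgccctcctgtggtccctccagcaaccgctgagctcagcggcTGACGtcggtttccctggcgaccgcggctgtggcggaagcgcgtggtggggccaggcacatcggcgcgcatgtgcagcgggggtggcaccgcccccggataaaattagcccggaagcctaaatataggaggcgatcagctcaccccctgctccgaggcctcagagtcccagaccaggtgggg
Fkbp5 chr17:28486100-28486399: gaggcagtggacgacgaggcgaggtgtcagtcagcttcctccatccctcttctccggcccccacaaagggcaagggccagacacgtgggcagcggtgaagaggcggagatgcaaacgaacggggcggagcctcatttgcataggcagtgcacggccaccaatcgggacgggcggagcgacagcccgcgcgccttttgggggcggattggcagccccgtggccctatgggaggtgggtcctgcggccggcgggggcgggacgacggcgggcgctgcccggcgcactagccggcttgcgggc
Of these genes Sgk1 and Per1 were higher in the knockout fit and Fkbp5 was lower, while Dusp1 differed little, as set out below. No match says only that these letters are not in the window.

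None of the 8 genes passed the threshold of an adjusted p of 0.05 over all genes tested, and 0.834% of the 20744 genes and unnamed probes tested did. In the fit 6 of the 8 were higher and 2 were lower in the knockout. Nr3c1, Per1 and Sgk1 were higher and Fkbp5 was lower with an unadjusted limma p between 0.0212 and 0.0300. That is 4 of 8 genes, set against 18.5% of all genes tested, where the median difference was −0.16. Both shares rested on wild-type array 3. With that array left out, the genes at an unadjusted limma p under 0.05 fell from 3833 to 1302, and these 4 were not among them. Their differences were then 1.34 ± 0.84 for Nr3c1, 0.95 ± 1.02 for Per1, 0.69 ± 0.49 for Sgk1 and −1.91 ± 1.04 for Fkbp5 (SE). Each kept its sign, with a limma adjusted p of 0.904 or more. The plot of the differences fitted with all arrays shows the brightest probes of these 4 genes apart from those of Tsc22d3, Dusp1, Klf9 and Ddit4, whose intervals lie across 0.

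**Figure D1:**
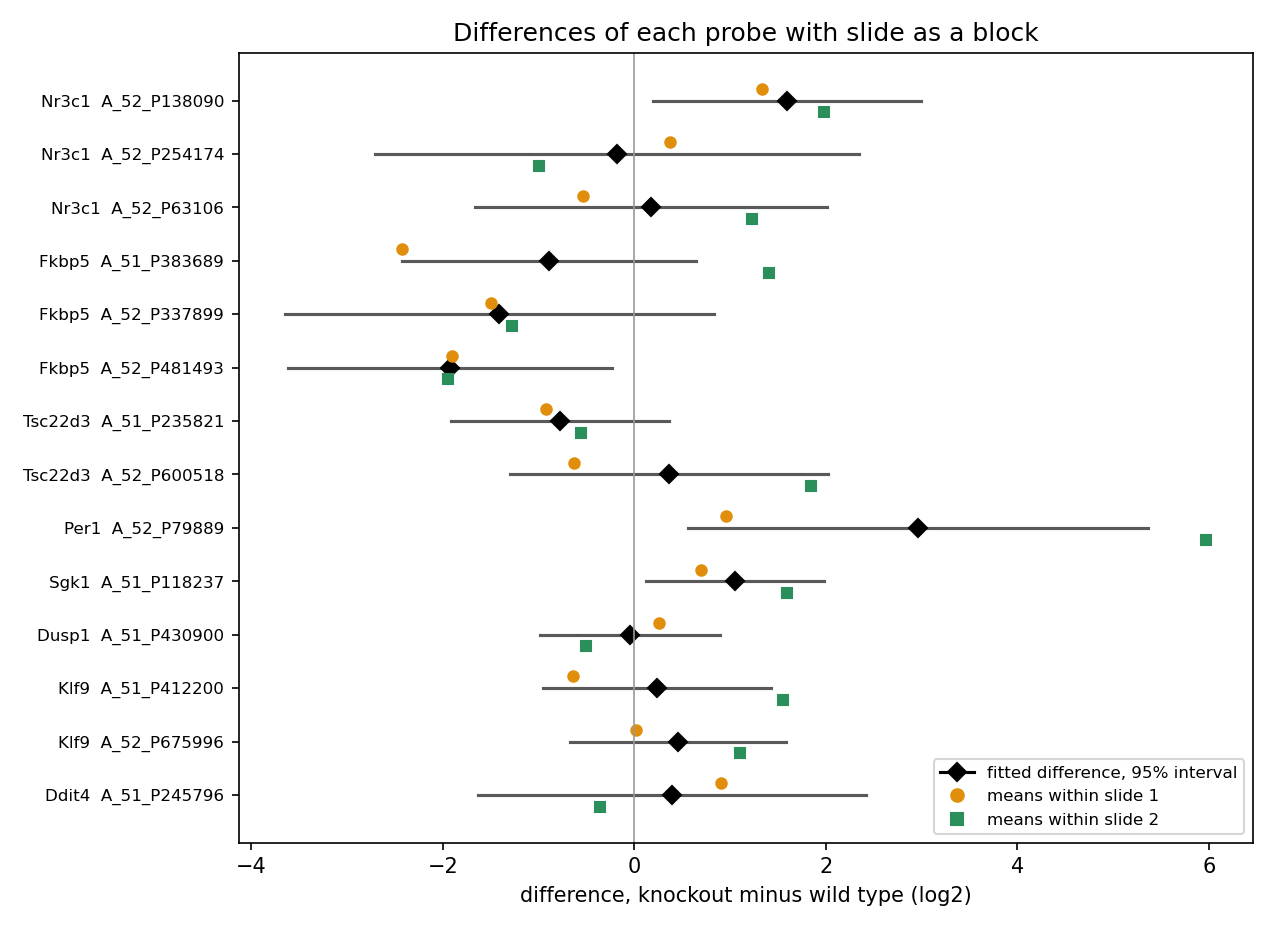
Fitted differences of the 14 tested probes of the 8 genes (diamonds), knockout minus wild-type in log2 units, with 95% confidence intervals from limma (lines) and the differences of means within slides 1 and 2. The intervals of the brightest probes of Nr3c1, Per1 and Sgk1, at 1.59, 2.96 and 1.05, lie to the right of 0 and that of Fkbp5, at −1.92, to the left, and 0 probes passed the adjusted threshold.

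The receptor gene Nr3c1 was read by 4 probes. On the brightest, A_52_P138090, its level was 2.66, 2.84, 2.71 and 1.86 on knockout arrays 1 to 4, against 1.46, 1.37, 0.31, 0.66, 3.68, 2.12 and 2.59 on wild-type arrays 1 to 7. All 4 knockout arrays lay above the 3 wild-type arrays of slides 1 and 2, whereas wild-type arrays 5, 6 and 7 reached or passed the knockout range. The mean was 2.52 ± 0.45 (SD, n = 4) in the knockout and 1.74 ± 1.16 (SD, n = 7) in wild-type. The fitted difference was 1.59 ± 0.62 (SE), which is 3.02-fold, with a 95% confidence interval of 0.20 to 2.99 and a limma adjusted p of 0.226. Within slide 1 the difference was 1.34 and within slide 2 it was 1.98. The summed level of 8 capsule and stromal markers was ordered likewise, at 9.77, 9.78, 10.58 and 9.43 on knockout arrays 1 to 4, against 9.20, 8.41 and 8.85 on wild-type arrays 1 to 3 and 10.33 to 11.03 on wild-type arrays 5 to 7. So was that of the Schwann cell precursor markers, at 3.12 to 3.34 on the knockout arrays, against 1.35 to 2.26 on wild-type arrays 1 to 3 and 3.67 to 4.28 on wild-type arrays 5 to 7. The part of such cells in the Nr3c1 level was not tested.

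The other Nr3c1 probes did not show that difference. A_52_P63106 was above background on 4 knockout and 5 wild-type arrays and differed by 0.17 ± 0.82 (SE, limma adjusted p = 0.937). A_52_P254174 was above background on 3 knockout and 2 wild-type arrays and differed by −0.18 ± 1.13 (SE, limma adjusted p = 0.953). The remaining probe, A_51_P355693, stayed at background on all 11 arrays and was not tested. All 4 carry the same accession, and which part of the transcript each one reads is not stated in the labels or the array files.

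**Figure D2:**
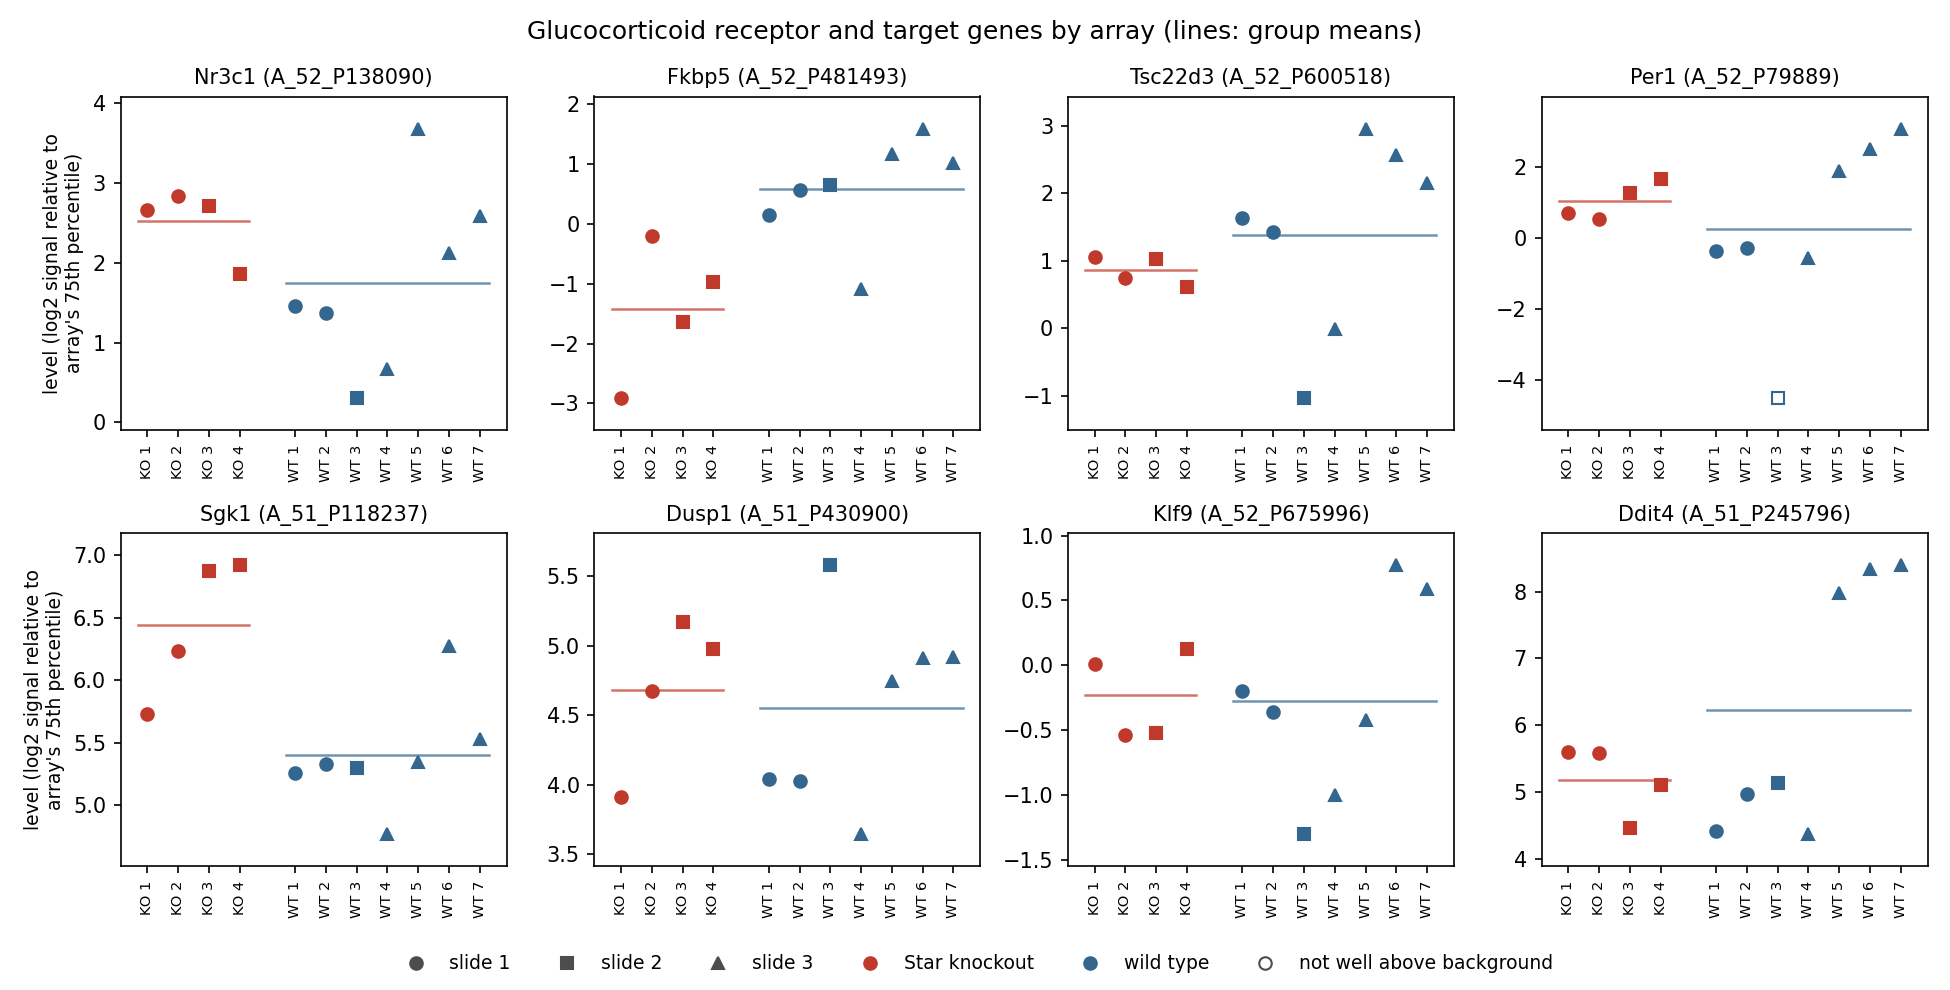
Level of the brightest probe of each of the 8 genes on every array, in log2 units relative to the array's 75th percentile, knockout arrays left of wild-type arrays, symbols by slide, lines at group means and open symbols where the spot was not well above background. For Sgk1 the 4 knockout arrays run from 5.73 to 6.92 and for Fkbp5 from −2.90 to −0.20, while Per1 and Ddit4 are high on wild-type arrays 5 to 7.

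Fkbp5, the feedback inhibitor of the receptor, was the target with the lowest fitted difference. On A_52_P481493 its level was −2.90, −0.20, −1.65 and −0.97 on knockout arrays 1 to 4, against 0.14, 0.57, 0.64, −1.09, 1.17, 1.59 and 1.01 on wild-type arrays 1 to 7. Every knockout array lay below 6 of the 7 wild-type arrays, and wild-type array 4 lay inside the knockout range. The fitted difference was −1.92 ± 0.76 (SE), a fold of 0.264, with a 95% confidence interval of −3.62 to −0.23 and a limma adjusted p of 0.227. It was −1.91 within slide 1 and −1.95 within slide 2.

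The 2 further Fkbp5 probes were also lower in the fit. On A_52_P337899 the level was −3.09, −2.77, −3.66 and −3.13 on knockout arrays 1 to 4, against −1.18, −1.69, −2.12, −2.65, −1.21, 1.34 and 2.18 on wild-type arrays 1 to 7. Here the groups did not overlap, and the difference was −1.41 ± 1.00 (SE, limma adjusted p = 0.491). On A_51_P383689 the level was −4.11, −3.82, −4.03 and −3.73 on the knockout arrays, against −1.45, −1.61, −5.29, −3.30, −2.48, −2.44 and −2.42 on the wild-type arrays, with knockout array 4 and wild-type array 3 not well above background. That probe differed by −0.89 ± 0.69 (SE, limma adjusted p = 0.524), with −2.43 within slide 1 and 1.41 within slide 2, where the single wild-type array is one of the dim ones. Of the 14 probes tested for the 8 genes, 1 had all knockout levels below all wild-type levels, as 2.81% of the 25891 probes tested did, and 0 had all of them above, as 4.33% did. Fitted probe by probe, 0 of the 14 passed the adjusted threshold, which 0.575% of all probes did.

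**Figure D3:**
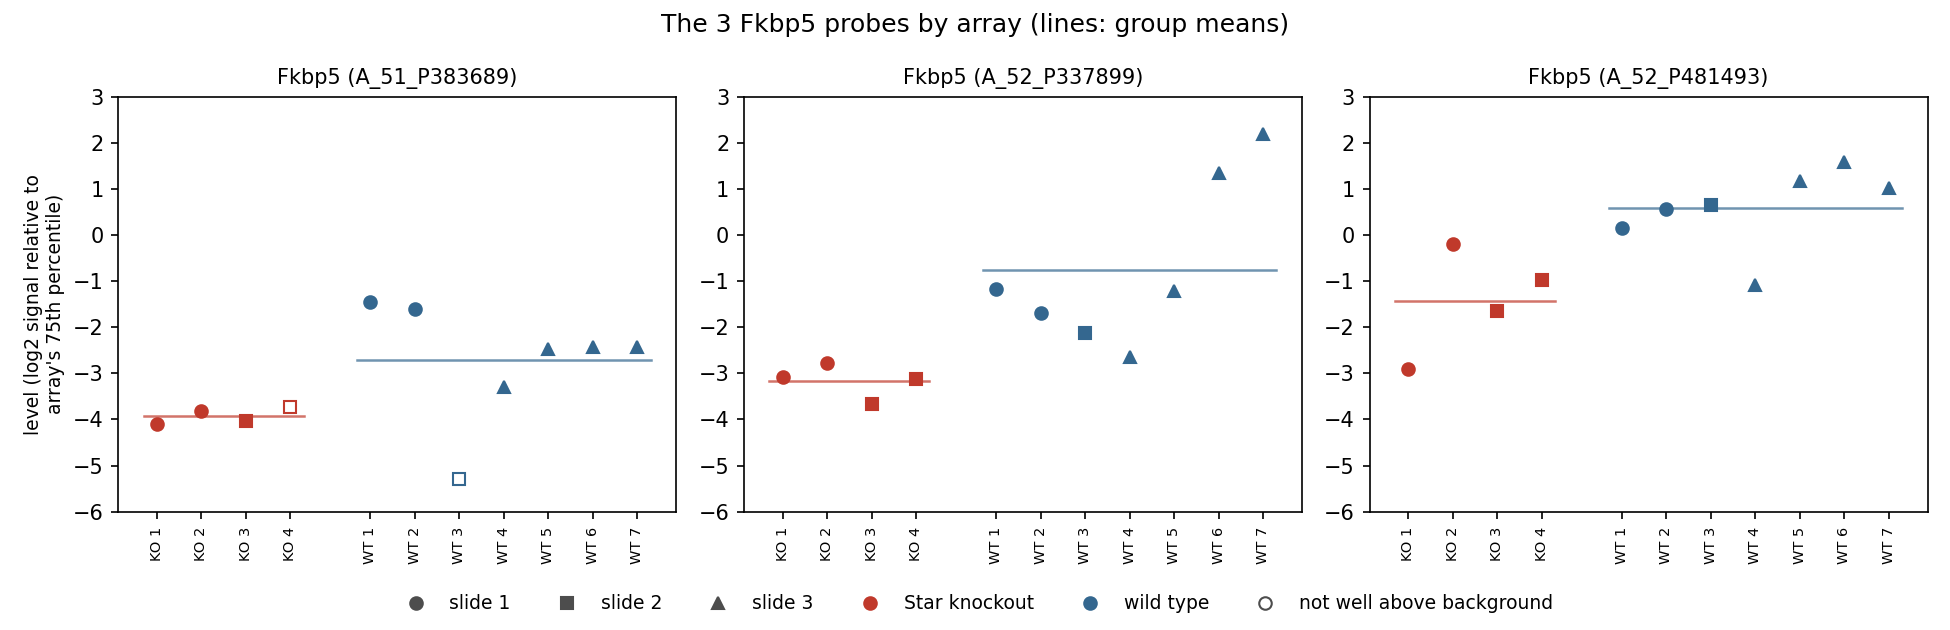
Levels of the 3 Fkbp5 probes on each array in log2 units relative to the array's 75th percentile, knockout arrays left of wild-type arrays, symbols by slide, lines at group means and open symbols where the spot was not well above background. On A_52_P337899 the knockout arrays run from −3.66 to −2.77 and the wild-type arrays from −2.65 to 2.18.

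Sgk1 encodes the serum- and glucocorticoid-regulated kinase, which controls ion channels and transporters, and 1 of its listed promoters holds the whole element shown above. Its level was 5.73, 6.23, 6.88 and 6.92 on knockout arrays 1 to 4, against 5.26, 5.33, 5.30, 4.77, 5.34, 6.27 and 5.53 on wild-type arrays 1 to 7. The knockout arrays lay above 6 of the 7 wild-type arrays, and wild-type array 6 lay inside their range. The fitted difference was 1.05 ± 0.41 (SE), which is 2.08-fold, with a 95% confidence interval of 0.14 to 1.97 and a limma adjusted p of 0.224. It was 0.69 within slide 1 and 1.60 within slide 2.

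Per1, a core repressor of the circadian clock that glucocorticoids and cAMP both induce, had a fitted difference that rested on wild-type array 3. Its level was 0.70, 0.52, 1.26 and 1.66 on knockout arrays 1 to 4, against −0.39, −0.30, −4.51, −0.58, 1.89, 2.49 and 3.07 on wild-type arrays 1 to 7. The knockout arrays lay above wild-type arrays 1 to 4 and below wild-type arrays 5 to 7. On wild-type array 3 the probe was not well above background. The fitted difference was 2.96 ± 1.08 (SE) with a 95% confidence interval of 0.55 to 5.38 and a limma adjusted p of 0.203. It was 0.95 within slide 1 but 5.97 within slide 2, where the comparison is with wild-type array 3 alone, and without that array it was 0.95 ± 1.02 (SE, limma adjusted p = 1.00).

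Klf9, a zinc finger transcription factor that the receptor induces in many tissues, had levels of 0.01, −0.54, −0.52 and 0.13 on knockout arrays 1 to 4 by A_52_P675996, against −0.20, −0.36, −1.30, −0.996, −0.42, 0.77 and 0.59 on wild-type arrays 1 to 7. The groups overlapped. The difference was 0.45 ± 0.50 (SE), with a 95% confidence interval of −0.67 to 1.57 and a limma adjusted p of 0.654. Its other probe, A_51_P412200, differed by 0.24 ± 0.53 (SE, limma adjusted p = 0.851), with −0.64 within slide 1 and 1.55 within slide 2.

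The anti-inflammatory targets showed no difference beyond their spread. Dusp1 encodes a phosphatase that switches off MAP kinases, and its promoter above holds the cAMP element. Its level was 3.91, 4.67, 5.17 and 4.98 on knockout arrays 1 to 4, against 4.04, 4.03, 5.58, 3.65, 4.75, 4.91 and 4.92 on wild-type arrays 1 to 7, and the groups overlapped. The difference was −0.048 ± 0.41 (SE), with a 95% confidence interval of −0.97 to 0.88 and a limma adjusted p of 0.965. It was 0.26 within slide 1 and −0.51 within slide 2, and its sign turned with quantile scaling, at 0.16, and with normexp background correction, at 0.13.

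Tsc22d3 encodes GILZ, the glucocorticoid-induced leucine zipper protein, and its 2 probes gave fitted differences of opposite sign. On A_52_P600518 the level was 1.05, 0.75, 1.03 and 0.61 on knockout arrays 1 to 4, against 1.64, 1.43, −1.03, −0.01, 2.96, 2.58 and 2.15 on wild-type arrays 1 to 7. The difference was 0.36 ± 0.74 (SE), with a 95% confidence interval of −1.30 to 2.02 and a limma adjusted p of 0.827. On A_51_P235821 the level was 0.29, 1.02, 0.47 and 0.69 on the knockout arrays, against 1.76, 1.41, 1.14, −0.26, 1.78, 1.63 and 1.31 on the wild-type arrays. All 4 knockout arrays lay below 6 of the 7 wild-type arrays, and wild-type array 4 was the lowest of all 11. The difference was −0.78 ± 0.51 (SE, limma adjusted p = 0.456). Within slide 1 both probes were lower in the knockout, with differences of −0.63 on A_52_P600518 and −0.93 on A_51_P235821. Within slide 2 A_52_P600518 differed by 1.85 and A_51_P235821 by −0.55.

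Ddit4, also called REDD1, encodes an inhibitor of mTOR signalling that responds to glucocorticoids, hypoxia and amino acid stress. Its level was 5.60, 5.58, 4.46 and 5.10 on knockout arrays 1 to 4, against 4.41, 4.97, 5.14, 4.37, 7.98, 8.34 and 8.39 on wild-type arrays 1 to 7. Wild-type arrays 5 to 7 stood apart from all others, and the other 4 wild-type arrays lay in or just below the knockout range. The mean was 5.19 ± 0.54 (SD, n = 4) in the knockout and 6.23 ± 1.90 (SD, n = 7) in wild-type, while the fit, which does not use slide 3 for the difference, gave 0.40 ± 0.91 (SE), a 95% confidence interval of −1.63 to 2.43 and a limma adjusted p of 0.846.

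Markers of other cell types moved with genotype and among the wild-type arrays, and their part in the levels of the receptor and its targets was not tested. In bulk samples, fewer cells of a type and less RNA per cell cannot be told apart. The summed level of the 11 macrophage markers on the array was 9.04 to 10.3 on knockout arrays and 5.53 to 7.74 on wild-type arrays, with 10 or 11 of them above background in both. The 8 chromaffin markers summed to 2.25 to 7.20 on knockout arrays and 6.64 to 10.95 on wild-type arrays. The 8 capsule and stromal markers summed to 9.43 to 10.6 on knockout arrays and 8.27 to 11.03 on wild-type arrays. The 8 adrenocortical markers, which include the deleted gene Star, summed to 7.14 to 8.91 on knockout arrays and 6.97 to 10.6 on wild-type arrays. The sums of the other lists overlapped too: 5.15 to 6.64 on knockout arrays and 4.86 to 8.25 on wild-type arrays for endothelial markers, 6.10 to 6.69 and 6.06 to 7.55 for erythroid markers, and 3.12 to 3.34 and 0.29 to 4.28 for Schwann cell precursor markers. Within the wild-type group, arrays 5, 6 and 7, on which Per1 and Ddit4 were highest, had the highest chromaffin sums at 10.95, 10.81 and 10.54 and adrenocortical sums of 7.27, 6.97 and 8.04. They also had the highest wild-type sums of capsule and stromal markers, at 11.03, 10.33 and 10.71, of endothelial markers, at 7.43, 8.25 and 7.04, and of Schwann cell precursor markers, at 4.13, 3.67 and 4.28. Wild-type array 4, on the same slide, had a chromaffin sum of 6.64 and an adrenocortical sum of 10.2, with Ddit4 at 4.37.

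**Figure D4:**
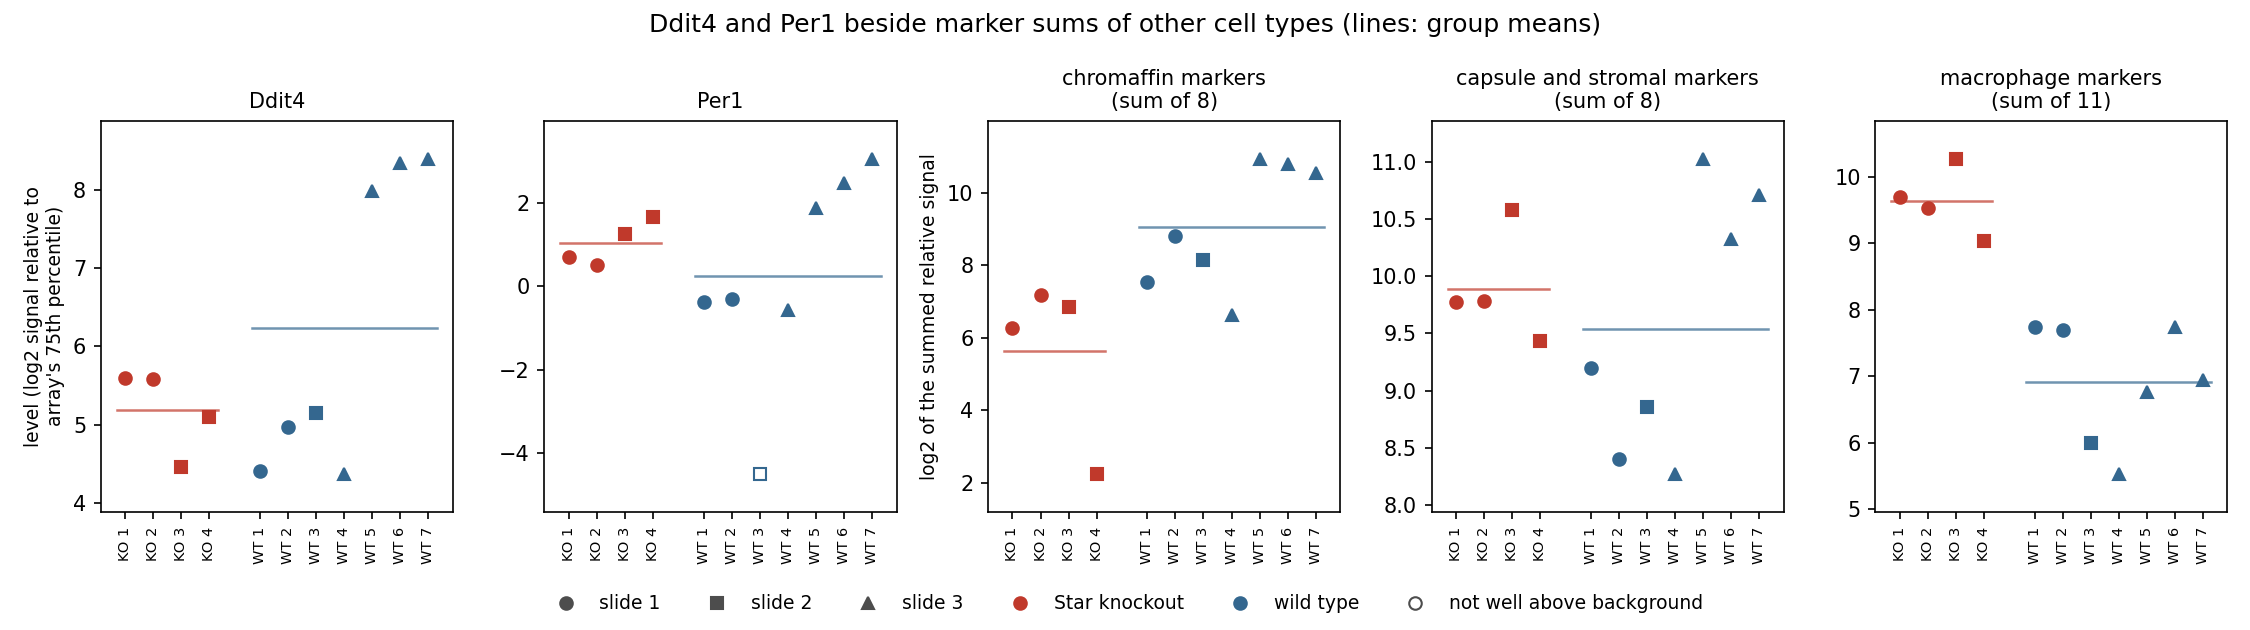
Levels of Ddit4 and Per1 and summed levels of the chromaffin, capsule and stromal, and macrophage markers on every array, in log2 units relative to the array's 75th percentile, knockout arrays left of wild-type arrays, symbols by slide and lines at group means. The macrophage sum separates the genotypes, and wild-type arrays 5 to 7 have chromaffin sums of 10.54 to 10.95.

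In the rest of the receptor pathway limma called 0 genes. At an unadjusted p under 0.05, beside 18.5% of all genes tested, stood 1 of 11 chaperones and immunophilins, 0 of 9 coregulators, 2 of 5 ligand access genes, 8 of 29 further induced targets and 3 of 8 repressed targets. Where a gene below is given a value without wild-type array 3, the dim array that stands alone for wild-type on slide 2, that value is the difference within slide 1. Among 11 chaperones and immunophilins of the receptor complex, 0 passed in either direction and the median difference was 0.13, beside −0.16 over all genes tested. Hsp90aa1, the stress-inducible HSP90 gene, averaged 6.67 ± 0.41 in the knockout and 7.79 ± 1.03 in wild-type (SD, n = 4 and n = 7) and differed by −1.36 ± 0.52 (SE, limma adjusted p = 0.216), but by −0.33 without wild-type array 3. Ppid, which encodes the immunophilin cyclophilin 40, differed by −0.83 ± 0.47 (SE, limma adjusted p = 0.377), and its sign turned without that array, at 0.068. Hspa8, the constitutive HSC70 gene, differed by 0.43 ± 0.33 (SE, limma adjusted p = 0.498).

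Of 9 coregulators tested, out of 10 listed, 0 passed and the median was −0.42. Smarca4, the ATPase of the SWI/SNF remodelling complex, differed by −0.74 ± 0.38 and the coactivator gene Ncoa3 by 0.72 ± 0.37, with limma adjusted p-values of 0.329 and 0.334. Without wild-type array 3 these were −0.21 for Smarca4 and 0.30 for Ncoa3. The corepressor gene Ncor1 differed by −0.42 ± 0.31 (SE, limma adjusted p = 0.481).

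The list called ligand access genes here holds genes that govern how much hormone reaches the receptor. It also holds the gene of the related mineralocorticoid receptor. In the fit 5 of 5 tested genes out of 6 listed were lower, with 0 past the threshold and a median of −1.12. Hsd11b1, whose enzyme regenerates active corticosterone from its inactive form, averaged 0.70 ± 0.61 in the knockout and 2.77 ± 1.12 in wild-type (SD, n = 4 and n = 7). It differed by −2.49 ± 0.72 (SE, limma adjusted p = 0.128). Abcb1b, one of the 2 mouse genes for the P-glycoprotein that exports glucocorticoids, averaged 3.31 ± 0.61 in the knockout and 3.30 ± 1.27 in wild-type, and its fitted difference, which leaves slide 3 out, was −1.12 ± 0.60 (SE, limma adjusted p = 0.349), or −0.63 without wild-type array 3. For its copy Abcb1a, 0 knockout arrays and 4 wild-type arrays had a signal well above background, with measured means of −5.15 in the knockout and −3.86 in wild-type (limma adjusted p = 0.213). The paralogs Abcb1a and Abcb1b are similar in sequence, so that their probes may share signal.

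A further 32 known induced targets were listed and 29 were tested, with 15 higher and 14 lower differences, 0 past the threshold, and a median of 0.063. Of the 8 with an unadjusted limma p under 0.05, 5 were higher and 3 were lower. The 3 lower ones had the smallest p and are those named here. Cdkn1c, an imprinted inhibitor of the cell cycle, averaged 6.32 ± 0.50 in the knockout and 7.68 ± 0.54 in wild-type (SD, n = 4 and n = 7), with every knockout array below every wild-type array. It differed by −1.40 ± 0.36 (SE, limma adjusted p = 0.103). The clock gene Per2 went the other way from Per1, at −1.59 ± 0.40 (SE, limma adjusted p = 0.103). For Fam107a, an actin-associated protein gene, 0 knockout arrays and 6 wild-type arrays had a signal well above background, with measured means of −6.60 in the knockout and −3.74 in wild-type. On these measured signals, which were at background on every knockout array, it differed by −2.41 ± 0.61 (SE, limma adjusted p = 0.100). Each knockout signal was also set to the lowest signal above background on its array, or its own where higher. The fit then gave a level 1.93-fold lower in the knockout, a bound that was not tested. On slides 1 and 2 Fam107a was above background on 2 of 3 wild-type arrays.

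Of 10 genes that the receptor represses, most of them inflammatory, 8 were tested. In the fit 5 were higher and 3 were lower, and 0 passed. The median was 1.67, or 0.45 with normexp background correction. Icam1, an adhesion molecule of leukocytes and endothelium, was higher on every knockout array than on any wild-type array, with means of −2.24 ± 0.71 in the knockout and −4.67 ± 0.94 in wild-type (SD, n = 4 and n = 7), and was above background on 4 knockout and 3 wild-type arrays. It differed by 2.16 ± 0.66 (SE, limma adjusted p = 0.147). Ptgs2, the inducible cyclooxygenase gene, differed by 1.98 ± 0.78 and the chemokine gene Ccl2 by 1.55 ± 0.62, with limma adjusted p-values of 0.226 and 0.232. Ptgs2 was above background on 4 knockout and 4 wild-type arrays, so that for Icam1 and Ptgs2 the size of the difference rests in part on wild-type signals at background. Macrophages also express Icam1, Ptgs2 and Ccl2, and the macrophage sum was higher on all knockout arrays, as given above. The part of those cells in the result was not tested.

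Several of the targets also answer to other signals, and genes of those signals were set beside them. Of 12 immediate early and cAMP-responsive genes, 11 were higher in the fit and 0 passed. An unadjusted limma p under 0.05 was reached by 5 of the 12, beside 18.5% of all genes tested. The median was 0.86, or 0.48 without the slide term. The summed level of the 12 genes overlapped between the groups, at 8.96 to 9.87 on knockout arrays and 8.46 to 9.77 on wild-type arrays. The transcription factor gene Atf3 averaged 4.12 ± 0.30 in the knockout and 2.07 ± 1.29 in wild-type (SD, n = 4 and n = 7) and differed by 2.55 ± 0.77 (SE, limma adjusted p = 0.139). The cAMP phosphodiesterase gene Pde4b differed by 1.48 ± 0.44 and the nuclear receptor gene Nr4a1 by 0.98 ± 0.31, with limma adjusted p-values of 0.135 and 0.155. Over all arrays Nr4a1 averaged 7.13 ± 0.31 in the knockout and 7.01 ± 0.90 in wild-type (SD, n = 4 and n = 7). Its fitted difference leaves slide 3 out, where the wild-type mean was 7.70.

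The ATF4 and hypoxia responses share Ddit4 as a target, and 11 of 12 listed genes were tested. Past the threshold 1 rose and 0 fell, beside 0.834% of all genes tested in either direction, and the median was −0.11. At an unadjusted limma p under 0.05 stood 2 of the 11, near the 18.5% of all genes tested. The gene that rose was Trib3, a pseudokinase induced by ATF4, which averaged 2.86 ± 0.26 in the knockout and −1.13 ± 0.66 in wild-type (SD, n = 4 and n = 7), with a difference of 4.12 ± 0.48 (SE, limma adjusted p = 0.00754). Ddit3, which encodes the stress factor CHOP, averaged 2.22 ± 0.19 in the knockout and 0.08 ± 0.98 in wild-type (SD, n = 4 and n = 7), with no overlap, and differed by 1.91 ± 0.64 (SE, limma adjusted p = 0.174). Egln3, an oxygen sensor induced in hypoxia, differed by −1.08 ± 0.61 (SE, limma adjusted p = 0.373), and its sign turned without wild-type array 3, at 0.072.

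**Figure D5:**
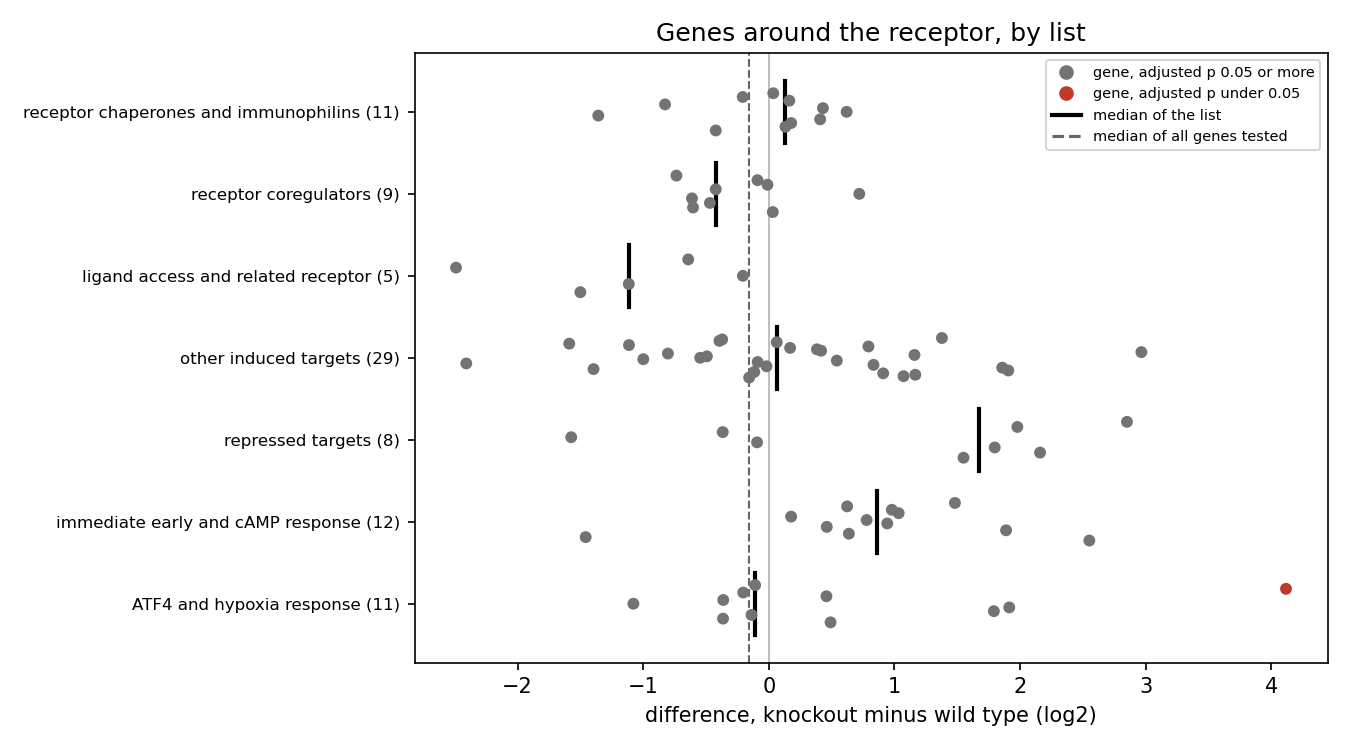
Fitted differences of every tested gene of each list, knockout minus wild-type in log2 units, with the median of each list (bars) and of all genes tested (dashed line). The 8 repressed targets, 5 of them higher, have a median of 1.67 (0.45 with normexp, not drawn). The 5 genes of ligand access and the related receptor have a median of −1.12, beside −0.16 over all genes tested. Trib3 at 4.12 is the gene past the adjusted threshold.

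Across the 11 arrays, the genes whose levels were most like those of Nr3c1 probe A_52_P138090, among 9289 genes above background on all arrays, were Rnft1, Oaf, Mgp, Hdac9 and Aspn. Their Pearson correlations were 0.957 for Rnft1, 0.932 for Oaf, 0.924 for Mgp, 0.923 for Hdac9 and 0.921 for Aspn, and the Spearman correlations were between 0.873 and 0.973. These values are descriptions without a test, picked as the highest of many, and the arrays share slides and genotypes. Mgp and Aspn encode proteins of the extracellular matrix, and Hdac9 encodes a histone deacetylase. Pnmt, the gene of the adrenaline-forming enzyme of chromaffin cells, which glucocorticoids are known to induce, was named after its values were seen. It lay between −4.16 and −3.44 on knockout arrays and between −1.04 and 5.34 on wild-type arrays, a difference of −5.54 ± 1.44 (SE, limma adjusted p = 0.107).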

How the data were processed

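Sorted green-fluorescent adrenocortical cells of 4 knockout and 7 wild-type fetuses were profiled, 1 mouse per array, per the labels. Spot intensity came from the deposited Agilent Feature Extraction files, whose processed signal is already background-subtracted according to their headers. Arrays of slides 1 and 2 were read with version 10.1.1.1 and those of slide 3 with 10.5.1.1, per the file headers, although only 10.5.1.1 appears in the submitters' processing notes. The authors' deposited series table holds log2 values and served as an alternative.

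Control spots (1639 of 45018 per array) and outlier spots were left out, spots of 1 probe were averaged, and the 75th percentile of the 41174 probes was subtracted on the log2 scale. A gene was represented by its brightest probe over all arrays and entered the test where at least 4 arrays read it well above background. The comparison used limma 3.58.1 (lmFit, eBayes; terms for genotype and slide; 7 residual degrees of freedom; two-sided) in R 4.3.3, with Benjamini-Hochberg adjustment over all 20744 genes and unnamed probes. The fit was tested on simulated data. The alternatives concerned the slide term, sex, replicate number, background, scaling, filter, probe choice, outlier spots, array weights and single arrays. For normexp (offset 50) median spot signals were used, since mean spot signals were not among the columns. Named pathway genes are the 3 with the smallest p in each list, Pnmt excepted. The genes and lists were chosen with earlier results of these data known. No Nr3c1 sequence is shown. Figures used matplotlib 3.10.9 in Python 3.11.15.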

Additional observations from a re-analysis of the deposited data

Results flagged for a closer look

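Of 28 groups of arrays examined, each the arrays of 1 genotype for 1 probe, 1 held an array far from the others by Dixon's criterion, and chance gives about 1 in 20. Tsc22d3 probe A_51_P235821 was at −0.26 on wild-type array 4, and the nearest wild-type array was at 1.14, a gap of 0.683 of the whole range.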

How the results depend on the processing

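The number of genes past the threshold was 173, with 125 higher and 48 lower in the knockout. It was 594 without the slide term, 469 with slide as a random block, 78 with sex as a term and wild-type array 4 left out, 624 with normexp and 92 with median scaling. It was 28 with sex as a term (25 higher, 3 lower), 403 with probes above background on all 11 arrays (225 higher, 178 lower) and 2319 with array weights (1239 higher, 1080 lower). Within slide 1 and slide 2 alone limma called 0 genes, with 3860 and 7488 at an unadjusted p under 0.05. With 1 array left out the number was 20, 52, 31 and 29 without knockout replicates 1 to 4, and 24, 35, 10, 565, 128, 145 and 106 without wild-type replicates 1 to 7. The median difference over all genes was −0.29 with normexp, beside −0.16.

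Nr3c1, Fkbp5, Per1, Sgk1 and Klf9 kept their sign under every alternative run. Nr3c1 ran from 0.53 to 1.98 and Fkbp5 from −2.60 to −1.25, and both passed the threshold with array weights, at 1.33 and −2.60 (limma adjusted p = 0.0315 and 0.0406, within ranges of 0.0315 to 0.953 and 0.0406 to 0.904). Sgk1 ran from 0.61 to 1.60 and Per1 from 0.80 to 5.97, with Per1 at 1.79 with sex as a term. Tsc22d3 was −0.53 without the slide term, −0.12 with a random block, −0.63 within slide 1, −0.066 with sex, −0.21 as the mean of its probes and −0.41 with array weights, and ran from −0.63 to 0.68 with 1 array left out. Dusp1 was 0.13 without the slide term, 0.062 with a random block, 0.26 within slide 1, 0.043 with sex and without wild-type array 4, 0.13 with normexp, 0.16 with quantile scaling and 0.035 with array weights, and ran from −0.31 to 0.26 with 1 array left out. Ddit4 was −1.05 without the slide term, −0.37 with a random block and −0.36 within slide 2. The cause of these turns was not tested.

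The median of the chaperones was −0.15 without the slide term, −0.18 within slide 1 and −0.20 with array weights, and ran from −0.18 to 0.15 with 1 array left out. That of the coregulators was 0.0042 without the slide term, −0.00032 with a random block, −0.21 within slide 1 and −0.12 over the mean of probes, and ran from −0.49 to −0.069. That of the ligand access genes was −0.69 without the slide term, −0.52 with a random block, −0.63 within slide 1, −1.52 within slide 2, −0.70 with normexp, −0.64 over the mean of probes and −0.82 with array weights, and ran from −1.40 to −0.63. That of the other induced targets was 0.42 with array weights, that of the repressed targets ran from 0.45 (normexp) to 2.23 (without wild-type replicate 1), and that of the immediate early genes was lowest at 0.48 without the slide term. That of the ATF4 and hypoxia genes was 0.33 within slide 1, 0.21 within slide 2 and 0.23 with array weights, and ran from −0.19 to 0.33.

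With the replicate number as a block in place of slide, 177 genes passed, Dusp1 was 0.36, and the medians were −0.076 for chaperones and −0.18 for coregulators. Arrays of the same number deviated together with correlations of −0.0077 to 0.22, so the numbers were not taken as pairs. The number of arrays limits the precision, above all the single wild-type array of slide 2.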
